A study of Rattus norvegicus with 12 samples.

Results

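KA-treated rats housed alone were compared with PBS-treated rats housed in an enriched environment, a comparison in which drug and housing differ together. Its 6 samples, 3 of KA_isolated and 3 of PBS_enriched, were taken by treatment label from the 12 samples of the series. RNA came from rat hippocampus, and each sample was 1 array of RNA pooled from 3 to 4 animals. The KA_isolated rats received KA at postnatal day 20 and were then caged singly for 10 days. The KA_enriched rats received KA at the same age and lived 8 to a large enriched cage. The PBS_isolated rats received PBS, also at postnatal day 20, and were caged singly for 10 days, and the PBS_enriched rats received PBS at that age and lived 8 to a large enriched cage. KA is read here as kainic acid, an agonist of glutamate receptors that provokes seizures. PBS is phosphate-buffered saline. The series asked whether enrichment lessens the injury that seizures cause.

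The labels name no group in ordinary group housing, so isolation and enrichment can only be compared with each other. Company, cage and enrichment differ together between them. Strain, sex, litter and cage are not given, so rats of 1 enriched sample may have shared a cage. The replicates are pools, and the labels do not say how the animals were divided among them. P-values therefore measure the spread between these pools. In whole tissue, fewer cells of a type and less RNA per cell cannot be told apart.

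Values are probe set signals on a linear scale, and differences are in log2(signal + 17), KA_isolated minus PBS_enriched unless stated. Of 15923 probe sets, 9520 were bright enough to be tested, and they name 6923 genes. The array medians lay between 70.06 and 74.1, and no array of the 6 stood apart in its mean correlation with the others (0.9855 to 0.9864). KA_enriched replicate 3 did (0.9772). It enters the main difference only through the brightness filter and the shared estimate of the spread. It also enters every value below that uses KA_enriched, the averaged KA and isolation effects among them. Among the PBS_enriched samples, replicate 2 was high for complement and microglial genes. For the 2 compared groups, C3, Cd74, Csf1r and the medians of those gene lists are given with and without it. Other single genes of those lists are given only with it. The ratio of 3 prime to 5 prime actin signal, a sign of RNA integrity, averaged 0.468 ± 0.147 in KA_isolated and 0.546 ± 0.0556 in PBS_enriched (log2, SD, n = 3 each; two-sided exact permutation p = 0.4, with 0.1 the smallest possible).

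Neurons that fire strongly switch on immediate early genes within minutes, among them the transcription factors Egr1, Fos and Junb and the synaptic protein Arc. Calcium entry activates CREB and the serum response factor, which bind the promoters of these genes. In the hippocampus their level tracks recent experience, and a seizure drives them sharply and briefly. Microglia, the resident macrophages of the brain, respond to injury with complement, lysosomal and antigen-presenting genes.

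Egr1, Arc, one Homer1 probe set, Junb and Egr4 were among the 12 genes of smallest p on the lower side in KA_isolated, but no probe set passed the test. The limma fit called 0 of 9520 at an adjusted p under 0.05 (0.0%), and the lowest adjusted p was 0.602, for Egr1. Before adjustment, 434 probe sets had a p under 0.05 (4.56%), of which 186 were higher (1.95%) and 248 lower (2.61%). Differences were small: the median size over genes was 0.07, the median standard error (SE) 0.10, and only 14 of 6923 genes (0.202%) differed by 0.5 or more. Every difference between these groups given below is therefore a value that did not pass.

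**Figure D1:**
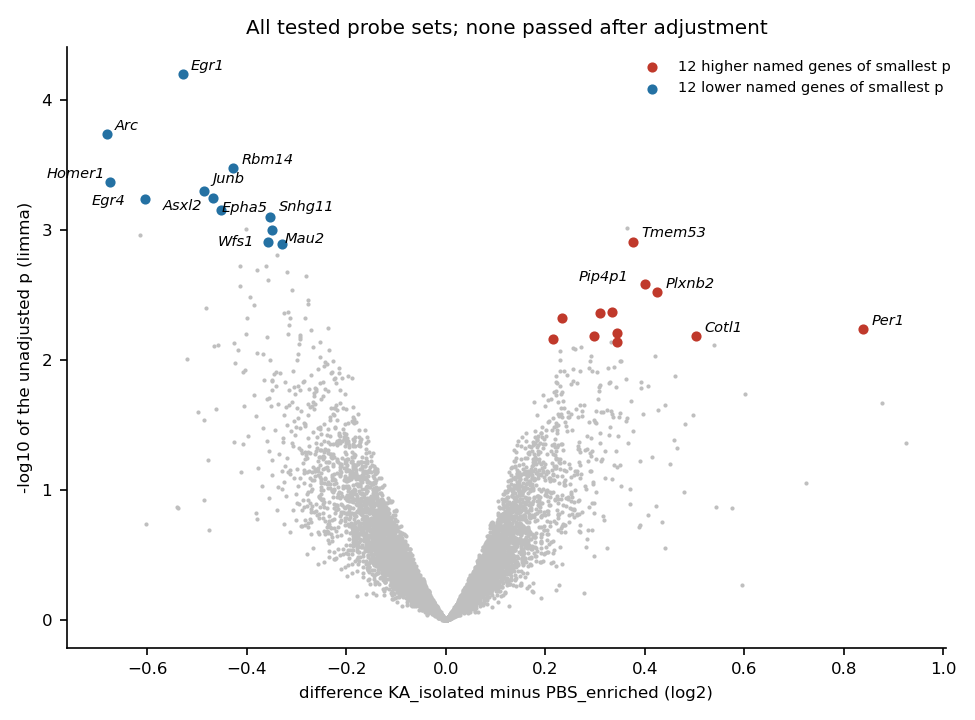
Difference KA_isolated minus PBS_enriched (log2, x axis) against -log10 of the unadjusted limma p (y axis) for the 9520 tested probe sets (grey). The 12 higher (red) and 12 lower (blue) named genes of smallest p are marked. Egr1, Arc, Homer1, Junb and Egr4 lie at the top left, and none passed after adjustment.

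Egr1, a zinc-finger transcription factor, had signals of 413, 378 and 403 in the KA_isolated samples, against 540.0, 547 and 664 in the PBS_enriched samples. The groups did not overlap. They averaged 398 ± 18.3 in KA_isolated and 584 ± 69.6 in PBS_enriched (SD, n = 3 each), a difference of -0.53 (SE 0.092, 95% interval -0.73 to -0.33, limma adjusted p = 0.602). Arc, a protein that takes AMPA receptors off the synapse, had 185, 188 and 201 in KA_isolated, against 285, 351 and 319 in PBS_enriched. Every KA_isolated sample was below every PBS_enriched one, and the spread within KA_isolated was narrow. The Arc difference of -0.68 (SE 0.13, interval -0.97 to -0.40, adjusted p = 0.755) was the lowest of all genes.

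Egr4, a relative of Egr1, had 68.6, 49.8 and 58.6 in KA_isolated, against 94.5, 86.3 and 114.6 in PBS_enriched. Junb, a partner of Fos in the AP-1 factor, had 97.3, 92.4 and 87.6 in KA_isolated, against 128.5, 135 and 145 in PBS_enriched. The groups did not overlap for either gene. The differences were -0.60 (SE 0.13) for Egr4 and -0.49 (SE 0.11) for Junb, with a limma adjusted p of 0.755 for both. A second Egr4 probe set, too dim to be tested, ran the other way without overlap, with 26.5, 27.1 and 34.6 in KA_isolated, against 10.3, 15.2 and 6.10 in PBS_enriched.

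Upstream of the start sites, the promoters of these genes hold short motifs bound by the activity-driven factors. Shown are the 250 bases before the RefSeq start site of 4 of the lower activity genes (assembly GRCr8), 5 prime to 3 prime on the strand of the gene. Capitals mark the CRE half-site bound by CREB (TGACG, or CGTCA on the other strand) and, in Egr1, CArG boxes bound by the serum response factor. Egr1 lies at chr18:26736828-26737077 (plus strand), Egr4 at chr4:119607818-119608067 (minus strand), Junb at chr19:40080876-40081125 (plus strand) and Nr4a1 at chr7:134259888-134260137 (plus strand).
Egr1: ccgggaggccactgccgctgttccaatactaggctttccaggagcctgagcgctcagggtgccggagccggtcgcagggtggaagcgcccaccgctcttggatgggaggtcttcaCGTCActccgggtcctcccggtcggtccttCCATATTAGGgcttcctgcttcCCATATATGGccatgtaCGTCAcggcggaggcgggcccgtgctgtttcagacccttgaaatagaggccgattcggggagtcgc
Egr4: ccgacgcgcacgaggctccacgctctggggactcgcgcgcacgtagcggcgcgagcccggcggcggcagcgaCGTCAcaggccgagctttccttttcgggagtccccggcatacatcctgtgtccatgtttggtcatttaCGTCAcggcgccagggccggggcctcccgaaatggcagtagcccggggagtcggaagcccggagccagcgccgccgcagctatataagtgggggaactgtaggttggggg
Junb: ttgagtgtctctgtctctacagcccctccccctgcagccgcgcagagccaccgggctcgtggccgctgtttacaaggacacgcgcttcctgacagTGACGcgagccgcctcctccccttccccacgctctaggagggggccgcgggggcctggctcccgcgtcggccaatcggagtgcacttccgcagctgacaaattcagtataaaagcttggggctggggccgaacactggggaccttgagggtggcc
Nr4a1: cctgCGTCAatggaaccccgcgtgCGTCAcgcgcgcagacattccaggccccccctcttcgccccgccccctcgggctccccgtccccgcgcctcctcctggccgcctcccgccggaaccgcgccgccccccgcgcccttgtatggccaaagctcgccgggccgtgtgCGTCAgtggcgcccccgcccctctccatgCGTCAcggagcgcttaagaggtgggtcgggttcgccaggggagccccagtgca

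Egr1 held 2 CArG boxes, at -105 to -96 and -83 to -74 from the start site, and CRE half-sites at -135 to -131 and -66 to -62. Of the 21 tested genes on the activity list, 17 had a promoter entry and 11 of these held a half-site (64.7%), against 18.2% of all 33469 entries. CArG boxes were in 2 of the 17 (11.8%), against 1.5% of all entries. The list was counted by gene, with any matching entry of a gene enough. The background was counted by entry, over all annotated genes rather than those tested. The shares are therefore not in the same unit. The half-site was searched on both strands in the same 250 bases, and the CArG box is its own reverse complement. These matches describe the sequence and say nothing of binding in these rats.

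The NR4A orphan nuclear receptors, induced by activity and needed for lasting memory, pointed the same way. They are named here after their values were seen. Nr4a1 had 149, 162 and 144 in KA_isolated, against 179.6, 215 and 204 in PBS_enriched. Nr4a2 had 95.4, 102 and 106 in KA_isolated, against 132, 135 and 143 in PBS_enriched. Nr4a3 had 324, 324 and 277.5 in KA_isolated, against 394, 399 and 409 in PBS_enriched. For all 3 genes the groups did not overlap, and the differences were alike, at -0.36, -0.38 and -0.36 (SE 0.11, 0.099 and 0.093). Limma adjusted p-values were 0.991, 0.951 and 0.948. A second, dimmer Nr4a2 probe set differed by -0.19 (adjusted p = 0.991).

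Homer1 encodes a scaffold of the postsynaptic density, with a short form made after activity and long forms made constantly. Its probe sets disagreed. One had 168, 159 and 186 in KA_isolated, against 280.2, 238 and 339 in PBS_enriched, a difference of -0.68 (SE 0.14, limma adjusted p = 0.755). The other 3 tested Homer1 probe sets differed by -0.09, -0.04 and 0.00. A further probe set, too dim to be tested, was lower without overlap. It had 23.51, 24.61 and 23.55 in KA_isolated, against 32.06, 26.73 and 43.97 in PBS_enriched. Which form each probe set reads is not given in the annotation used here.

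Fos was too dim to be tested. Its brighter probe set had 30.1, 34.4 and 29.7 in KA_isolated, against 36.7, 73.0 and 72.3 in PBS_enriched, so the groups did not overlap but PBS_enriched replicate 1 lay close to KA_isolated. Bdnf, the neurotrophin induced by activity, overlapped between the groups (difference -0.15, SE 0.088).

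**Figure D2:**
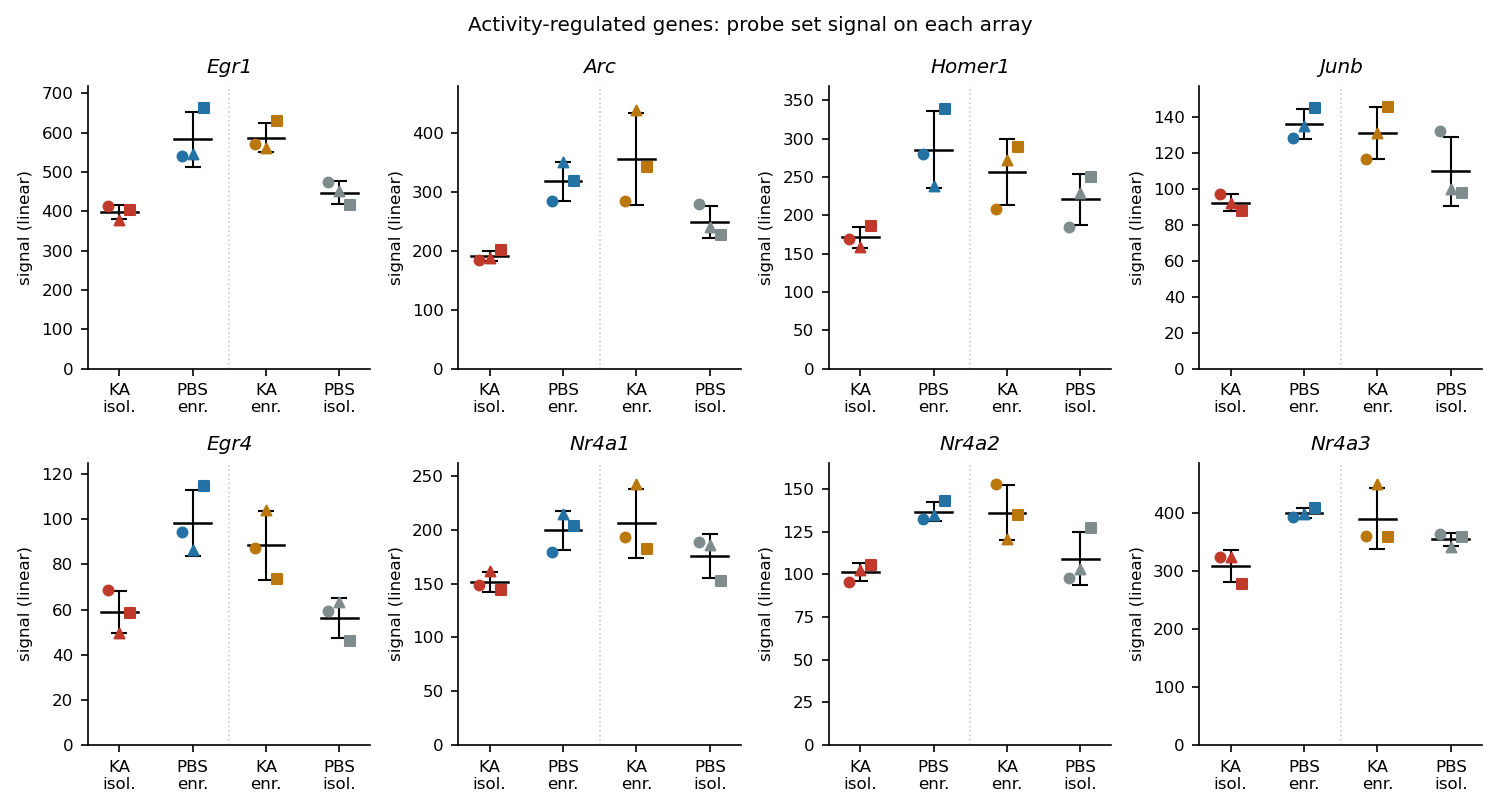
Probe set signal (linear, y axis from 0) of 8 activity-regulated genes on each array, by group; circle, triangle and square are replicates 1, 2 and 3, and bars are mean ± SD (n = 3). All 3 KA_isolated points lie below all 3 PBS_enriched points in each panel, and Egr1 reads 413, 378 and 403 in KA_isolated against 540.0, 547 and 664 in PBS_enriched.

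Over the whole activity list, 21 of 34 genes were tested, 6 higher and 15 lower. Lower at an unadjusted p under 0.05 were 7, against 2.34% of all genes, and they were Egr1, Arc, Junb, Egr4 and the NR4A genes. The groups did not overlap in the same direction for 7 members, against 6.38% of all genes. Higher at an unadjusted p under 0.05 was 1 member, Per1, against 2.02% of all genes. In that direction 2 members did not overlap, against 6.31%. The median difference was -0.09, against 0.00 over all genes, and -0.03 without PBS_enriched replicate 3. The remaining members were mostly nearer 0, and 4 of them are named here after their values were seen. Ptgs2 and Klf4 differed by 0.00, Jun, with probe sets that disagreed, by 0.04 at its brightest, and Dusp1, a phosphatase that ends MAP kinase signals, by -0.29 with overlapping groups. Earlier results of these data had already shown activity genes to differ with housing, so the list is not independent evidence of its direction.

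Per1, a clock gene that also responds to activity and glucocorticoids, is on the activity list but ran against most of it. Its signals were 81.7, 65.02 and 66.0 in KA_isolated, against 26.5, 57.5 and 19.2 in PBS_enriched. The groups did not overlap, but PBS_enriched replicate 2 came close. The difference of 0.84 (SE 0.25, adjusted p = 0.991) was 1.14 without that sample (adjusted p = 0.385). Other clock genes did not share it: Clock differed by -0.35 and Bmal1 by -0.22, and 7 of 14 tested clock genes were higher.

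Because each sample carries both factors, the difference equals the mean KA effect (KA over PBS, averaged over housings) plus the mean isolation effect (isolated over enriched, averaged over treatments). For Egr1 the isolation part was -0.45 and the KA part -0.07 (SE 0.065 each). Arc had parts of -0.58 and -0.11, Egr4 of -0.56 and -0.04, and Junb of -0.36 and -0.13, the isolation part first. Among the 12 lower genes of smallest p, the isolation part was the larger in 11. Their median was -0.35 for isolation and -0.12 for KA. The isolation part of Egr1 passed its own test over 12 arrays (limma adjusted p = 0.042; 2 of 9520 probe sets were called, 0.021%), but not when any 1 of the 12 arrays was left out (adjusted p 0.0552 to 0.209). The exception among the 12 was Wfs1, a protein of the endoplasmic reticulum that marks CA1 pyramidal cells. It had 748, 700.3 and 777 in KA_isolated, against 950.3, 905 and 1010 in PBS_enriched, with a KA part of -0.24 and an isolation part of -0.12. A second Wfs1 probe set differed by -0.24 with overlapping groups.

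The opposite corner of the design, KA_enriched against PBS_isolated, shares no array with the main comparison, though both use the same estimate of the spread. That difference equals the KA part minus the isolation part. The opposite sign that 11 of the 12 lower genes had there (median 0.22) therefore restates that their isolation part was the larger. Of all 3535 genes lower in the main comparison, 52.7% were positive there. Egr1 averaged 588 ± 37.3 in KA_enriched and 448 ± 29.7 in PBS_isolated, a difference of 0.38 (adjusted p = 0.914). Arc averaged 356 ± 78.6 in KA_enriched and 249 ± 27.6 in PBS_isolated, a difference of 0.47 (adjusted p = 0.914). For Egr1 and Arc the PBS_isolated means lay between those of KA_isolated and PBS_enriched. Egr4 did not follow that order, with 59.0 ± 9.40 in KA_isolated, 88.4 ± 15.2 in KA_enriched, 56.3 ± 8.91 in PBS_isolated and 98.5 ± 14.6 in PBS_enriched.

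**Figure D3:**
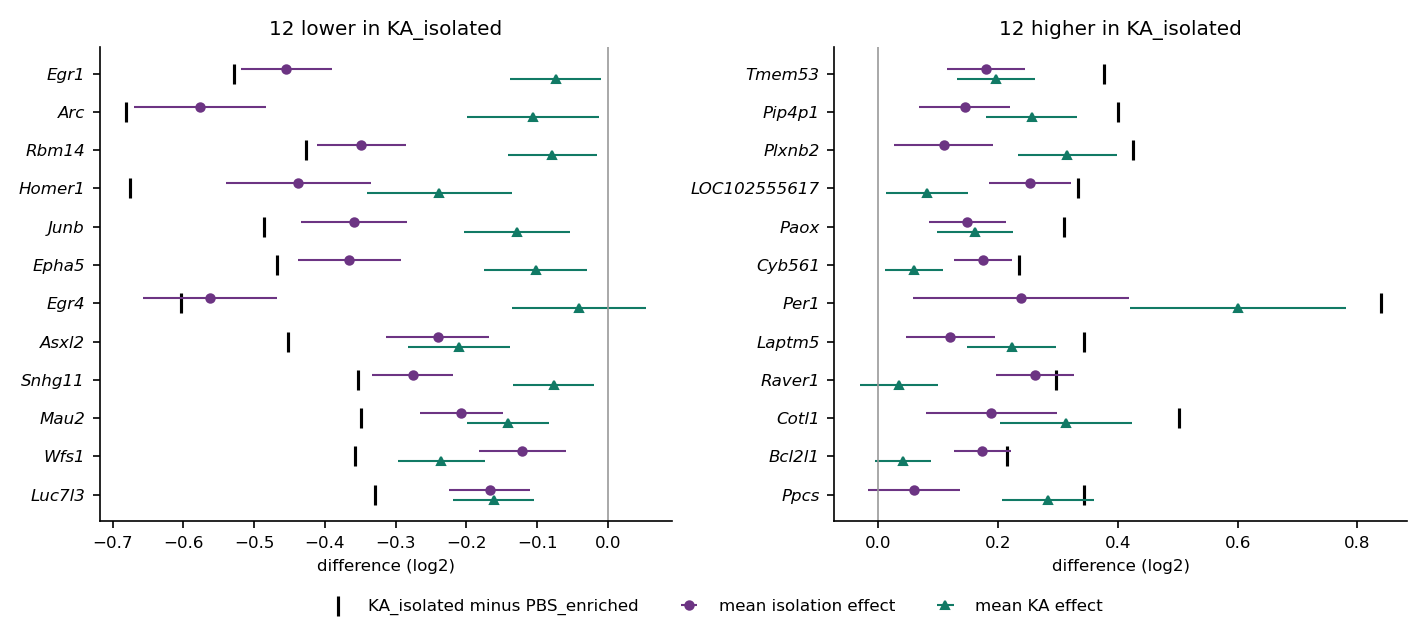
Parts of the difference for the 12 lower (left) and 12 higher (right) genes of smallest p, on a log2 axis. Black ticks are KA_isolated minus PBS_enriched, circles the mean isolation effect and triangles the mean KA effect, each ± SE. For the lower genes the isolation part was larger in 11 of 12; for the higher genes in 4 of 12.

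The remaining lower genes of smallest p were of mixed function. Rbm14, a coactivator and RNA-binding protein, had 54.5, 49.1 and 63.3 in KA_isolated, against 80.7, 82.3 and 78.1 in PBS_enriched. Epha5, an ephrin receptor that guides hippocampal axons, had 177, 164 and 167 in KA_isolated, against 210.1, 252 and 262 in PBS_enriched. Neither gene overlapped between the groups, and they had isolation parts of -0.35 and -0.37 and KA parts of -0.08 and -0.10. Asxl2, a chromatin regulator, differed by -0.45, the host RNA Snhg11 by -0.35, the cohesin loader Mau2 by -0.35 and the splicing factor Luc7l3 by -0.33, all without overlap (adjusted p = 0.755 each). A second Mau2 probe set of similar signal differed by -0.07 with overlapping groups (adjusted p = 0.992).

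The 12 genes of smallest p on the higher side were of mixed function too. Cotl1, an actin-binding protein abundant in immune cells, had 301, 318.5 and 311 in KA_isolated, against 223, 212 and 207 in PBS_enriched, a difference of 0.50 (SE 0.16, adjusted p = 0.991). Plxnb2, a semaphorin receptor, had 176, 185 and 166 in KA_isolated, against 121, 139 and 120.1 in PBS_enriched, a difference of 0.43 (SE 0.12). The groups did not overlap for either. Pip4p1, a phosphoinositide phosphatase of late endosomes, differed by 0.40, and Tmem53, a nuclear envelope protein, by 0.38 (adjusted p = 0.755, the lowest on the higher side). The survival gene Bcl2l1 differed by 0.21, the polyamine oxidase Paox by 0.31 and the coenzyme A enzyme Ppcs by 0.34. For these 12 higher genes the medians of the parts were 0.21 for KA and 0.17 for isolation, and 4 of 12 had the opposite sign in KA_enriched against PBS_isolated. Over all 3388 genes higher in the main comparison that share was 52.7%.

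Microglial genes leaned higher in KA_isolated without passing. Of 26 genes listed, 14 were tested and 13 had a difference above 0, against 48.9% of all genes. At an unadjusted p under 0.05, 5 were higher, against 2.02% of all genes, and 3 had groups that did not overlap, against 6.31%. The median was 0.16. Laptm5, a lysosomal membrane protein, had 130.5, 148 and 165 in KA_isolated, against 103, 122 and 112 in PBS_enriched. P2ry12, the purine receptor of surveying microglia, had 167, 174 and 171 in KA_isolated, against 113, 163 and 107 in PBS_enriched. Msn, which ties actin to the membrane, had 115, 135.5 and 107 in KA_isolated, against 85.4, 95.7 and 87.4 in PBS_enriched. These 3 did not overlap, with differences of 0.34, 0.39 and 0.35 (SE 0.11, 0.14 and 0.12, adjusted p = 0.991 each).

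Csf1r, the receptor on which microglia depend, had 301, 353 and 284 in KA_isolated, against 182, 316 and 197 in PBS_enriched (difference 0.44, SE 0.17, interval 0.07 to 0.81, adjusted p = 0.991). C3, the central complement component, had 100.1, 110.2 and 69.95 in KA_isolated, against 24.2, 99.1 and 22.5 in PBS_enriched. Its difference of 0.93 (SE 0.41, interval 0.03 to 1.82, adjusted p = 0.991) was the highest among the tested genes. C3 passed the brightness filter only through KA_isolated: its mean log2 level was 6.77 in KA_isolated, 5.92 in KA_enriched, 5.51 in PBS_isolated and 5.84 in PBS_enriched, and the dimmest tested probe set averaged 5.997. In Csf1r and C3 the group overlap came from PBS_enriched replicate 2, which read at the KA_isolated level. Cd74, which chaperones MHC class II molecules, had 125, 187 and 102 in KA_isolated, against 42.2, 152 and 59.7 in PBS_enriched (difference 0.72, SE 0.39). Aif1, often used as a microglial stain, had probe sets that disagreed. One differed by 0.13 (SE 0.14). The other had 73.3, 67.7 and 65.1 in KA_isolated, against 33.8, 79.3 and 32.5 in PBS_enriched, a difference of 0.46 (SE 0.20, interval 0.02 to 0.89, adjusted p = 0.991), again with PBS_enriched replicate 2 at the KA_isolated level. Like C3, this Aif1 probe set passed the brightness filter only through KA_isolated. Its mean log2 level was 6.42 in KA_isolated, 5.87 in KA_enriched, 5.79 in PBS_isolated and 5.96 in PBS_enriched.

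PBS_enriched replicate 2 was singled out because it read high for complement and microglial genes. Larger differences and counts for them without it follow from that choice. Without PBS_enriched replicate 2, the adjusted threshold was still passed by 0 probe sets. The differences then were 1.43 for C3 (adjusted p = 0.528), 1.17 for Cd74 (adjusted p = 0.717) and 0.67 for Csf1r (adjusted p = 0.385). Of the 14 microglial genes, 8 were higher at an unadjusted p under 0.05, against 2.51% of all genes in that fit, and 10 had groups that did not overlap, against 12.3%. The microglial median was 0.25. The count of 5 was also not steady in the other direction: it was 2 without KA_isolated replicate 2, without PBS_enriched replicate 1 or without PBS_enriched replicate 3. All 5 tested complement genes were higher without overlap once PBS_enriched replicate 2 was left out, against 12.3% of all genes. With it 0 were, against 6.31%. C3, among these 5, passed the brightness filter only through KA_isolated. The complement median was 0.43 without PBS_enriched replicate 2 and 0.30 with it. It was 0.18 without KA_isolated replicate 2 and 0.20 without PBS_enriched replicate 3. Of 16 lysosomal genes, 7 were higher at an unadjusted p under 0.05 without PBS_enriched replicate 2, and 1 with it. That count was 3 without KA_isolated replicate 3 and 4 without KA_enriched replicate 3. It was 0 without KA_isolated replicate 2, PBS_enriched replicate 1 or PBS_enriched replicate 3. A similar high reading appeared in KA_enriched replicate 3, with 105.9 for C3, against 24.6 and 26.4 in the other KA_enriched samples. PBS_isolated was even, with 28.7, 27.9 and 29.5.

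**Figure D4:**
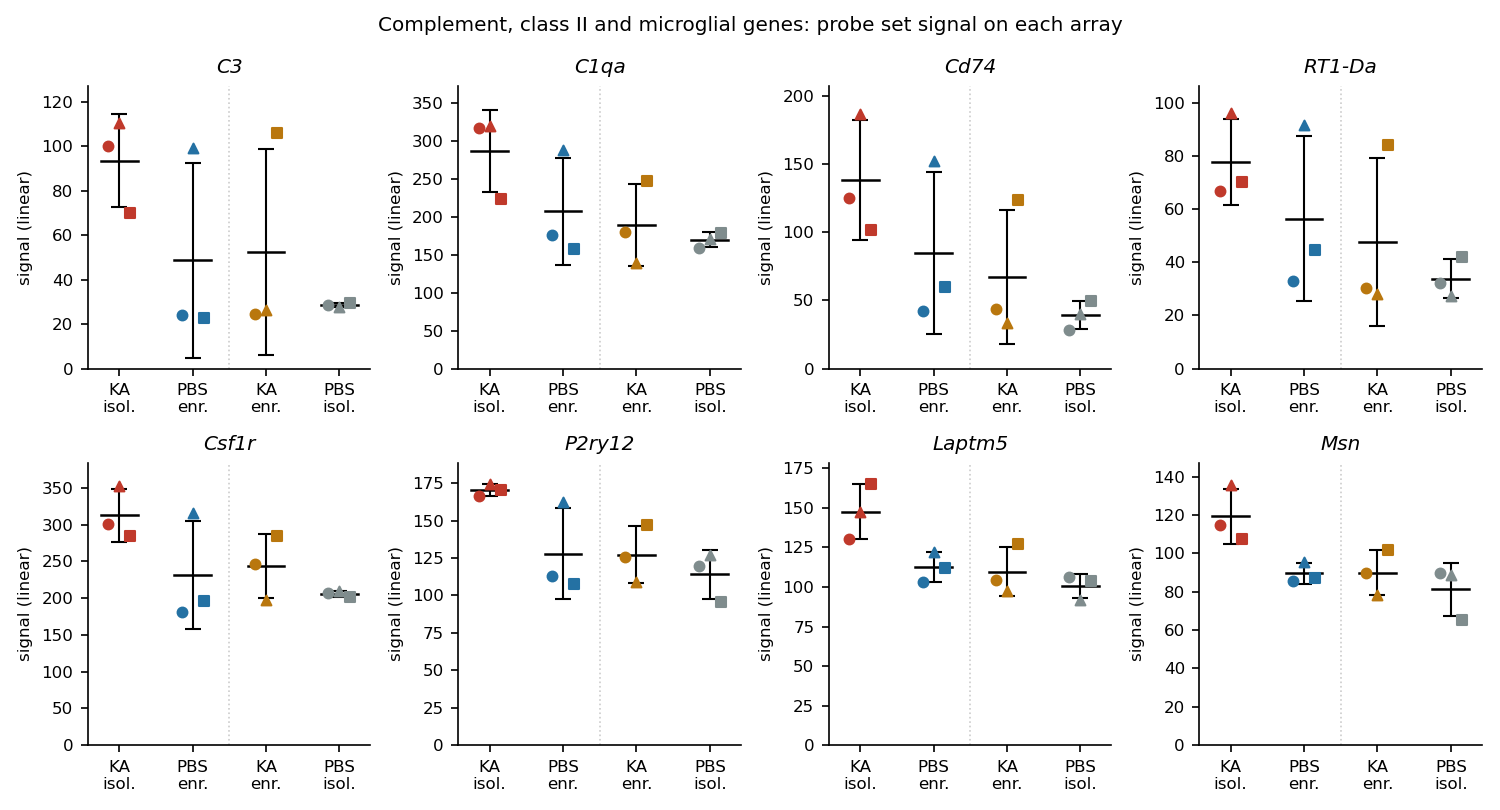
Probe set signal (linear, y axis from 0) of 8 complement, MHC class II and microglial genes on each array, by group; circle, triangle and square are replicates 1, 2 and 3, and bars are mean ± SD (n = 3). PBS_enriched replicate 2 (triangle) reads near KA_isolated in the top row, with 99.1 for C3 against 24.2 and 22.5 in the other PBS_enriched samples.

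Averaged over the other factor, the KA part was the larger for C3, Csf1r and Cd74. C3 had parts of 0.67 for KA and 0.26 for isolation, Csf1r of 0.33 and 0.12, and Cd74 of 0.59 and 0.14. These averages cover unlike steps. For C3, KA_isolated minus PBS_isolated was 1.26 and KA_enriched minus PBS_enriched 0.08, while KA_isolated minus KA_enriched was 0.85 and PBS_isolated minus PBS_enriched -0.33. For Cd74 the same steps were 1.45, -0.28, 0.998 and -0.72. No step or interaction of either gene passed. The median over the microglial list was 0.37 for KA in isolated rats (13 of 14 above 0) and 0.00 for KA in enriched rats (8 of 14). For isolation it was 0.16 after KA (12 of 14) and -0.10 after PBS (2 of 14). These steps share groups with each other. They are given here only with PBS_enriched replicate 2 and KA_enriched replicate 3. The mean log2 level of the 14 genes, centred on the 6 compared arrays, was -0.185, 0.075 and -0.19 in PBS_enriched. It was -0.179, -0.219 and -0.213 in PBS_isolated, and -0.115, -0.208 and 0.056 in KA_enriched. C3 read 24.2, 99.1 and 22.5 in PBS_enriched, against 28.7, 27.9 and 29.5 in PBS_isolated. In KA_enriched against PBS_isolated, 13 of the 14 had a difference above 0 as well, against 50.1% of all genes, with a median of 0.13. None of them passed.

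The lysosomal, MHC and reactive astrocyte lists also had medians above 0. Over all genes, 48.9% had a difference above 0 and 2.02% were higher at an unadjusted p under 0.05. Of the lysosomal genes, 14 of 16 were higher (median 0.12). Npc2, which carries cholesterol out of lysosomes, differed by 0.35 and progranulin (Grn) by 0.29. Of 7 MHC and antigen presentation genes, 6 were higher (median 0.11), none of them at an unadjusted p under 0.05. All 9 tested reactive astrocyte genes were higher (median 0.13), with 2 at an unadjusted p under 0.05, Gfap and S100a10. That count was 1 without KA_isolated replicate 2 or 3 and 0 without PBS_enriched replicate 1 or 3. The number higher was 7 of 9 without KA_isolated replicate 3 and 8 of 9 without PBS_enriched replicate 1 or 3. Gfap, the intermediate filament of reactive astrocytes, had 2518, 2611 and 2051 in KA_isolated, against 1661, 2146 and 1876 in PBS_enriched (difference 0.33, SE 0.13, adjusted p = 0.991). Its groups overlapped through KA_isolated replicate 3 and PBS_enriched replicate 2. Without PBS_enriched replicate 2 its difference was 0.43. The list medians without that sample were 0.21 for lysosomal, 0.19 for MHC and 0.23 for reactive astrocyte genes. Homeostatic astrocyte genes were near even, with 7 of 13 higher, and the cytokine and NF-kappaB list had 6 of 10 higher and 0 at an unadjusted p under 0.05.

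Monoamine and GABA receptors and voltage-gated channels had list medians slightly below 0, and metabotropic glutamate receptors above it. Gabra5, the GABA-A subunit of extrasynaptic receptors in hippocampal pyramidal cells, had 513, 454 and 576 in KA_isolated, against 709, 659 and 695 in PBS_enriched (difference -0.41, SE 0.11, adjusted p = 0.991). The groups did not overlap, and the KA and isolation parts were alike at -0.22 and -0.19. Htr5b, a serotonin receptor, had 116.9, 115.5 and 108 in KA_isolated, against 165.5, 138 and 148 in PBS_enriched (difference -0.36, SE 0.096), with a KA part of -0.27. Htr1a, the inhibitory serotonin receptor of pyramidal cells, differed by -0.30, nearly all of it in the KA part. Above 0 were 2 of 11 tested monoamine and histamine receptors, 5 of 24 voltage-gated channels and 2 of 8 GABA receptors, against 48.9% of all genes, with medians of -0.08, -0.08 and -0.05. Without KA_isolated replicate 2 the monoamine list had 5 of 11 above 0 and a median of -0.02, and the GABA median was -0.12. The channel median was -0.12 without PBS_enriched replicate 2, and the GABA median was -0.03 without KA_isolated replicate 3. No channel reached an unadjusted p under 0.05. Of 5 metabotropic glutamate receptors 4 were above 0 (median 0.09), but 2 were without KA_isolated replicate 2 (median 0.00). Their list median was 0.20 without PBS_enriched replicate 2. The presynaptic glutamate receptor Grm2 differed by 0.40 and the interneuron peptide Sst by 0.24, both without overlap.

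Neuron identity and myelin were near even. Of 9 principal neuron genes 4 were higher (median -0.01), and of 12 myelin genes 7 (median 0.01), with Mbp, the myelin basic protein, at 0.03 in one probe set and -0.08 in another. Npy, a peptide raised in hippocampal neurons by seizures, had 398, 391.8 and 451.5 in KA_isolated, against 508, 469 and 451.6 in PBS_enriched (difference -0.20, SE 0.087, adjusted p = 0.991). Its groups abutted without overlap. The small heat shock protein Hspb1 differed by 0.13 with overlapping groups, and Hspa1a by -0.32 without overlap. Cytosolic ribosomal proteins were higher in 22 of 23 (median 0.09), against 48.9% of all genes, but that median was 0.04 after quantile normalization. The apoptosis list was split, with 7 of 12 higher.

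**Figure D5:**
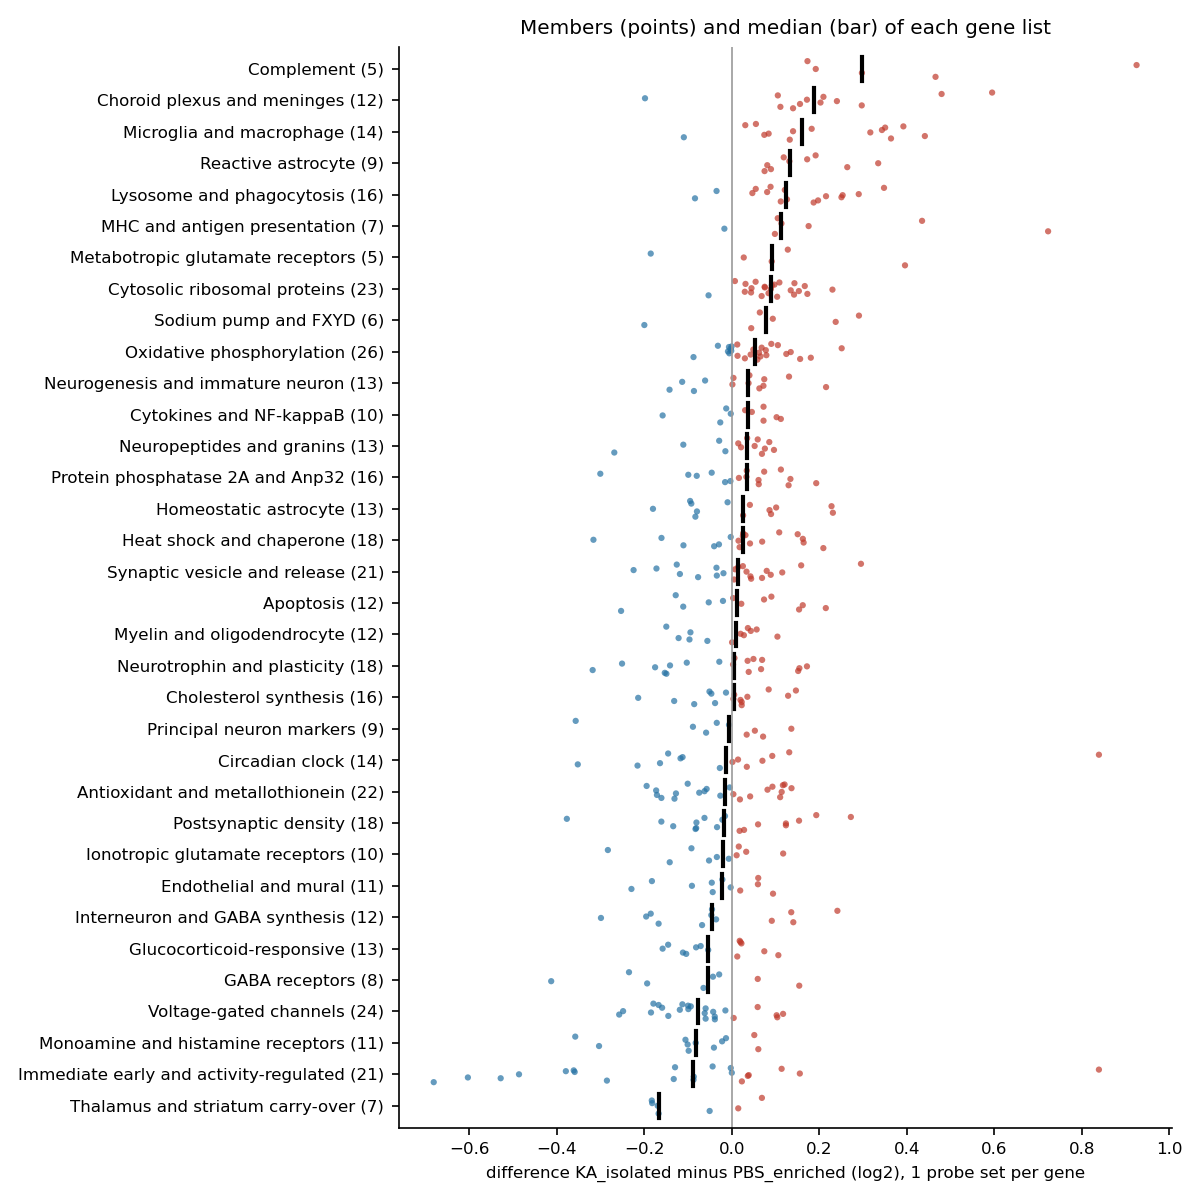
Difference KA_isolated minus PBS_enriched (log2) of each tested gene (points, red above 0 and blue below) in the lists with at least 5 tested genes, with the list median (black bar); the number tested is in brackets. Complement (median 0.30, 5 tested genes) stands at the top. C3, among them, passed the brightness filter only through KA_isolated. The activity list carries the lowest single values, down to -0.68 for Arc.

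Markers of neighbouring tissue also differed in level. Choroid plexus and meningeal genes were higher in 11 of 12 tested, against 48.9% of all genes (median 0.19, 0 at an unadjusted p under 0.05). Their summed signal was 2661 to 3358 in KA_isolated and 1774 to 3223 in PBS_enriched. Their median was 0.04 without PBS_enriched replicate 1 (7 of 12 above 0), 0.05 without KA_isolated replicate 3 (9 of 12), 0.28 without KA_isolated replicate 1 and 0.32 without PBS_enriched replicate 3. Ttr, the choroid plexus carrier of thyroid hormone, had 104, 377 and 151 in KA_isolated, against 110.1, 142 and 97.7 in PBS_enriched (difference 0.60, SE 0.93). Thalamic and striatal genes were lower in 5 of 7 (median -0.17), with sums of 864 to 942 in KA_isolated and 938 to 1008 in PBS_enriched. The thalamic median was -0.07 without KA_isolated replicate 3, -0.11 without KA_isolated replicate 1 and -0.10 without PBS_enriched replicate 3. Prkcd, a thalamic kinase, differed by -0.18 without overlap, and the striatal receptors Drd2 and Adora2a were below the filter. Blood genes were below 0 in 3 of 3 (median -0.10), but 2 of 3 were above 0 without PBS_enriched replicate 3 (median 0.04). The part of these tissues in the results above was not tested.

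Anp32a, a nuclear phosphoprotein that inhibits protein phosphatase 2A, was alike in the compared groups and far higher in another. It had 167.5, 162 and 132.5 in KA_isolated, against 127, 132 and 159 in PBS_enriched, with overlapping groups and a difference of 0.13 (SE 0.13, adjusted p = 0.991). PBS_isolated stood at 391.7 ± 63.9, with 385.5, 331 and 459. Against PBS_enriched it rose by 1.38 in PBS_isolated (limma adjusted p = 0.00115, the 1 of 9520 probe sets called there, 0.0105%). Against PBS_isolated it fell by 1.25 in KA_isolated (adjusted p = 0.00361, again 1 of 9520, 0.0105%). The sum of a KA part of -0.84 and an isolation part of 0.97 is therefore close to 0. In KA_enriched it averaged 99.3 ± 16.0, the lowest of the 4 groups.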

How the data were processed

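Per the labels, total RNA from pooled rat hippocampi was measured in 12 samples, and groups were taken from the treatment text. The authors deposited 1 intensity per probe set, linear and between 0.0036 and 5591. How probes were summarised was not stated in the labels or file headers. Judged by the values, all arrays share a mean of 150.03 once 2% is trimmed at each end, and no further normalization was applied. The number of arrays limits the precision.

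From the deposited intensity, log2(signal + 17) was computed, 17 being about the 20th percentile, so differences of dim genes are understated. The 57 control probe sets were left out and the top 60% of the other 15866 by mean over 12 arrays went into limma 3.58.1 (R 4.3.3, functions lmFit and eBayes), with 1 mean per group, 13.07 degrees of freedom and Benjamini-Hochberg adjustment over 9520 probe sets at 0.05. The steps were tested on simulated data. Symbols came from the array annotation: 12789 probe sets had 1 symbol, 312 several and 2822 none, and 12754 were matched to RefSeq by Entrez ID. Promoters are from RefSeq, assembly GRCr8. Gene lists (35) used the probe set of highest mean per gene and had no set test.

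Named were the 12 higher and 12 lower genes of smallest p, up to 4 members per list, list edges and 14 fixed genes; others are marked. The comparison, members and lists were chosen with earlier results of these data known. The labels do not say that a sample number marks a shared litter, batch or day, so no pairing was used. Deviations of same-numbered samples of the compared groups correlated at -0.072, 0.017 and 0.1. Alternatives covered the pseudocount, filter, normalization, arrays in the fit, array weights, trend, replicate block, probe set choice and leaving out arrays.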

Additional observations from a re-analysis of the deposited data

How the results depend on the processing

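Between KA_isolated and PBS_enriched, 0 probe sets were called under each of the 17 alternatives, of which the fit without KA_enriched replicate 3 was chosen after seeing the data. The count at an unadjusted p under 0.05 (434) was 782 without a filter, 275 in the top 40% and 735 with array weights. Leaving out 1 of the arrays it was 272 (without PBS_enriched replicate 1) to 556 (without KA_enriched replicate 3). The median of the microglial list was 0.317 in the top 40%, where 7 of its genes were left, and 0.15 to 0.25 without 1 array. The activity list had -0.209 in the top 40% (14 genes), -0.166 with the mean of all probe sets of a gene, and -0.126 to -0.033 without 1 array. Egr1 ranged from -0.58 to -0.435 over the alternatives, with adjusted p of 0.179 or above, and Arc from -0.754 to -0.606. Mbp reversed to -0.037 with quantile normalization, -0.039 without KA_isolated replicate 2 and -0.033 without PBS_enriched replicate 2, within a range of -0.039 to 0.091 without 1 array. The cause of these shifts was not tested beyond the number of genes and samples left. Correlations between same-numbered samples ran from -0.072 to 0.199 over 18 pairs, against -0.142 to 0.101 for other numbers. Both ends of the same-number range lay higher, and the labels do not say what a number marks. The replicate block gave 0 calls and 489 probe sets at an unadjusted p under 0.05. The probe sets called for the mean isolation effect (2) were 1 with a pseudocount of 1, equal medians, array weights or the replicate block, 3 with an intensity trend, and 1 to 2 without 1 array. PBS_isolated against PBS_enriched called 2 in the top 40% and with array weights, and 1 to 2 without 1 array. The step calls of Anp32a kept an adjusted p of 0.0338 or below in 21 alternatives each; leaving out PBS_isolated arrays and KA_enriched replicates 1 and 2 was added after seeing the data. The number of arrays, 3 per group, limits the precision; the median SE of a gene was 0.10.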
